A study of Sus scrofa with 6 samples.

Results

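RNA polymerase II, the Mediator complex and the general transcription factors make up the machinery that starts transcription of protein-coding genes. Their genes were taken by symbol from RNA-seq of pig (Sus scrofa) embryos. A gene was a member if its symbol was MED, TAF or GTF2 followed by a digit or a letter, POLR2 followed by a letter from A to M, or TBP. This gave 83 genes of the 29874 in the table, and all 83 were protein-coding in the RefSeq gene table of the pig build Sscrofa11.1. The symbols of 73 of them stand for subunits or close partners of RNA polymerase II, Mediator, TFIID, TFIIA, TFIIB, TFIIE, TFIIF or TFIIH. The other 10 met the symbol rule but were not counted in these complexes, although some are related to their subunits. They are described after the subunits.

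The study compared 3 control libraries with 3 knockdown libraries, all from 8-cell embryos. Per the genotype label, knockdown embryos received siRNA by injection into the cytoplasm against LncT, a transcript that the series treats as a long non-coding RNA and whose own level was not checked here. Titles and columns name the siRNA of these samples siL and SL, and a further set of 9 columns headed ST matched no sample and was not used. If SL stands for another target, the comparison is of that siRNA. The labels give the same injection protocol for both groups and give no strain, sex or further genotype, and what the control embryos received is not stated in them. How many embryos went into a library is not given either, so the spread that p-values rest on may be technical rather than that between embryos. Levels are FPKM, fragments per kilobase of transcript scaled to the mapped fragments of the library, as deposited, summed over the transcript rows of each gene.

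RNA polymerase II is built from POLR2A and POLR2B, which form the catalytic cleft, and from smaller subunits, some of which it shares with RNA polymerases I and III. At a promoter, TFIID binds DNA through TBP and its TAF subunits, TFIIA and TFIIB hold TBP on the DNA and bring in the polymerase with TFIIF, and TFIIE and TFIIH open the DNA. Mediator bridges this assembly and sequence-specific activators through its head, middle and tail modules, and a separable kinase module can block its contact with the polymerase. An embryo starts with RNA stored in the egg and later relies on transcription of its own genome, and mammalian germ cells and oocytes carry variant forms of several of these factors.

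Relative depth, as coverage divided by FPKM, lay between 6.288 and 7.03 in every library but knockdown 2, where it was 9.41. The table held 9237 and 9490 genes at 1 FPKM or more for controls 1 and 2, against 10335 for control 3 and 9940 to 10577 for the knockdowns. Control 3 stood apart from the other controls, and whether its label is right could not be checked from the files. Across the 68 members whose mean reached 1 FPKM, Spearman's rho, given here as a description over genes that share their libraries, was 0.91 between controls 1 and 2, 0.497 and 0.5 between control 3 and these 2, 0.936 to 0.961 between control 3 and the knockdowns, and 0.953 to 0.966 among the knockdowns. Counts over lists, and genes described in full whose call depends on it, are therefore given with all 6 libraries and without control 3. Control 3 was singled out after its values were seen to resemble the knockdowns, so leaving it out favours calls. Adjusted p-values and counts of genes passing without it describe that fit and are not evidence of an effect of the knockdown. All 6 egg and embryo markers examined were present, with a summed level of 1796, 1859 and 1041 FPKM in controls 1, 2 and 3 and 959 to 1423 FPKM in the knockdowns. Of 8 cumulus and granulosa cell markers in the table, 7 had a mean under 1 FPKM, among them FOXL2, which defines granulosa cells and was listed at 0 in all libraries. The summed level of the 8 was 5.68 to 8.36 FPKM in controls and 6.1 to 7.69 FPKM in knockdowns, and most of it was INHBA, with a mean of 5.75 FPKM. TNFAIP6, a cumulus marker chosen after its values were seen, measured 0.0864, 0.352 and 0.537 FPKM in controls 1 to 3. Knockdowns 1 to 3 had 1.59, 1.46 and 1.74 FPKM, higher without overlap, as were 4.38% of all genes tested. With a mean of 0.962 FPKM, TNFAIP6 itself was not among the genes tested. CYP19A1 and INHBA on the same list had lower means in knockdowns, 0.19 against 0.352 FPKM and 5.17 against 6.32 FPKM. DAZL, on the egg and embryo list, measured 60.2 to 78.2 FPKM in controls. Knockdowns had 45.6 to 48.5 FPKM of it, lower without overlap, as were 2.86% of all genes tested. The summed egg and embryo markers and the number of detected genes divided the libraries as many members did. Their part in the results below, and that of TNFAIP6 and DAZL, was not tested.

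Of the 83 members, 68 reached a mean of 1 FPKM across all libraries and were tested, 42 had a mean of at least 10 FPKM, and 5 had a mean of at least 100 FPKM. These 5 were MED4 at 219 FPKM, POLR2J at 198, TAF9 at 174, MED6 at 130 and GTF2E1 at 119. MED4 and MED6 are Mediator subunits, POLR2J helps the polymerase to assemble, TAF9 belongs to TFIID and GTF2E1 to TFIIE. Controls 1 to 3 had 60, 63 and 68 members at 1 FPKM or more, and knockdowns 1 to 3 had 66, 69 and 67.

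The question put to these genes is whether their transcripts differ between libraries labelled as knockdown and controls. With all 6 libraries weighted equally and transcript rows summed, 0 members and 0 of all genes tested passed the adjusted threshold, whereas array weights gave 30 members and 3405 genes. A higher mean on the log2(FPKM + 1) scale in the knockdowns was found for 41 of the 68, or 60.3%, and a lower one for 27, against 50.4% of all genes tested higher. Under quantile normalization 35 of the 68 were higher, against 38.2% of all genes. The pattern that recurred was of genes, such as POLR2B, POLR2D, MED8, MED18, GTF2H3 and GTF2H5, that were low in controls 1 and 2 and high in control 3 and all 3 knockdowns. MED9 differed in that control 3 was nearer to the other controls.

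The test was limma on log2(FPKM + 1) over 10417 genes, two-sided, with Benjamini-Hochberg adjustment at 0.05, and it called 0% of them. The smallest adjusted p among members was 0.775, which is also the smallest over all genes. At an unadjusted p under 0.05, 4 members were higher in the knockdowns (MED9, MED18, POLR2B and POLR2G) and 0 were lower, against 3.6% of all genes tested higher and 0.586% lower. Quantile normalization gave 5 members higher and 0 lower at that threshold, and moved the split of all genes from 375 higher and 61 lower to 296 higher and 202 lower. Groups did not overlap for 4 members that were higher (MED9, GTF2F1, TAF5 and TAF7) and 1 that was lower (TAF9B), against 4.38% and 2.86% of all genes tested. Both counts are near those shares. In bulk samples, fewer cells that hold a transcript and less of it per cell cannot be told apart.

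The median log2 change of the 68 tested members, knockdown minus control, was 0.21, against 0.00 for all genes tested. Under quantile normalization the medians were 0.01 for the members and -0.17 for all genes, a difference of 0.18, against 0.20 in the values as deposited. Without control 3 the median was 0.44 for the members and -0.05 for all genes, and the members' median was 0.13 without control 1 and 0.12 without control 2. In the fit without control 3, 24 members passed the adjusted threshold and were higher in the knockdowns, 35.3% of those tested, against 20.2% of all genes. Another 4 members passed and were lower (GTF2E1, MED27, TAF1A and TAF8), 5.88% of those tested, against 7.22% of all genes. The 1 FPKM filter kept the mean of all 6 libraries in that fit. MED10, POLR2G and GTF2H5, with means of 0.525, 0.802 and 0.3 FPKM in controls 1 and 2, met it through the libraries where they were high, as did MED9. Their p-values in that fit are limited by this. Without control 3, groups did not overlap for 34 members that were higher and 15 that were lower, and for 61.9% of all genes tested in either direction.

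Control 3 lay above all 3 knockdowns for 25 of the 68 members, below all 3 for 17 and within their range for 26. Its value was nearer to the knockdown mean than to the mean of controls 1 and 2 for 63 members, 92.6% of those tested, against 84.4% of all genes tested. The mean log2 level of the tested members was 3.33, 3.27 and 4.14 in controls 1 to 3, against 3.89, 4.18 and 4.11 in knockdowns 1 to 3. Control 3 was thus the highest of the controls and within the range of the knockdowns.

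**Figure D1:**
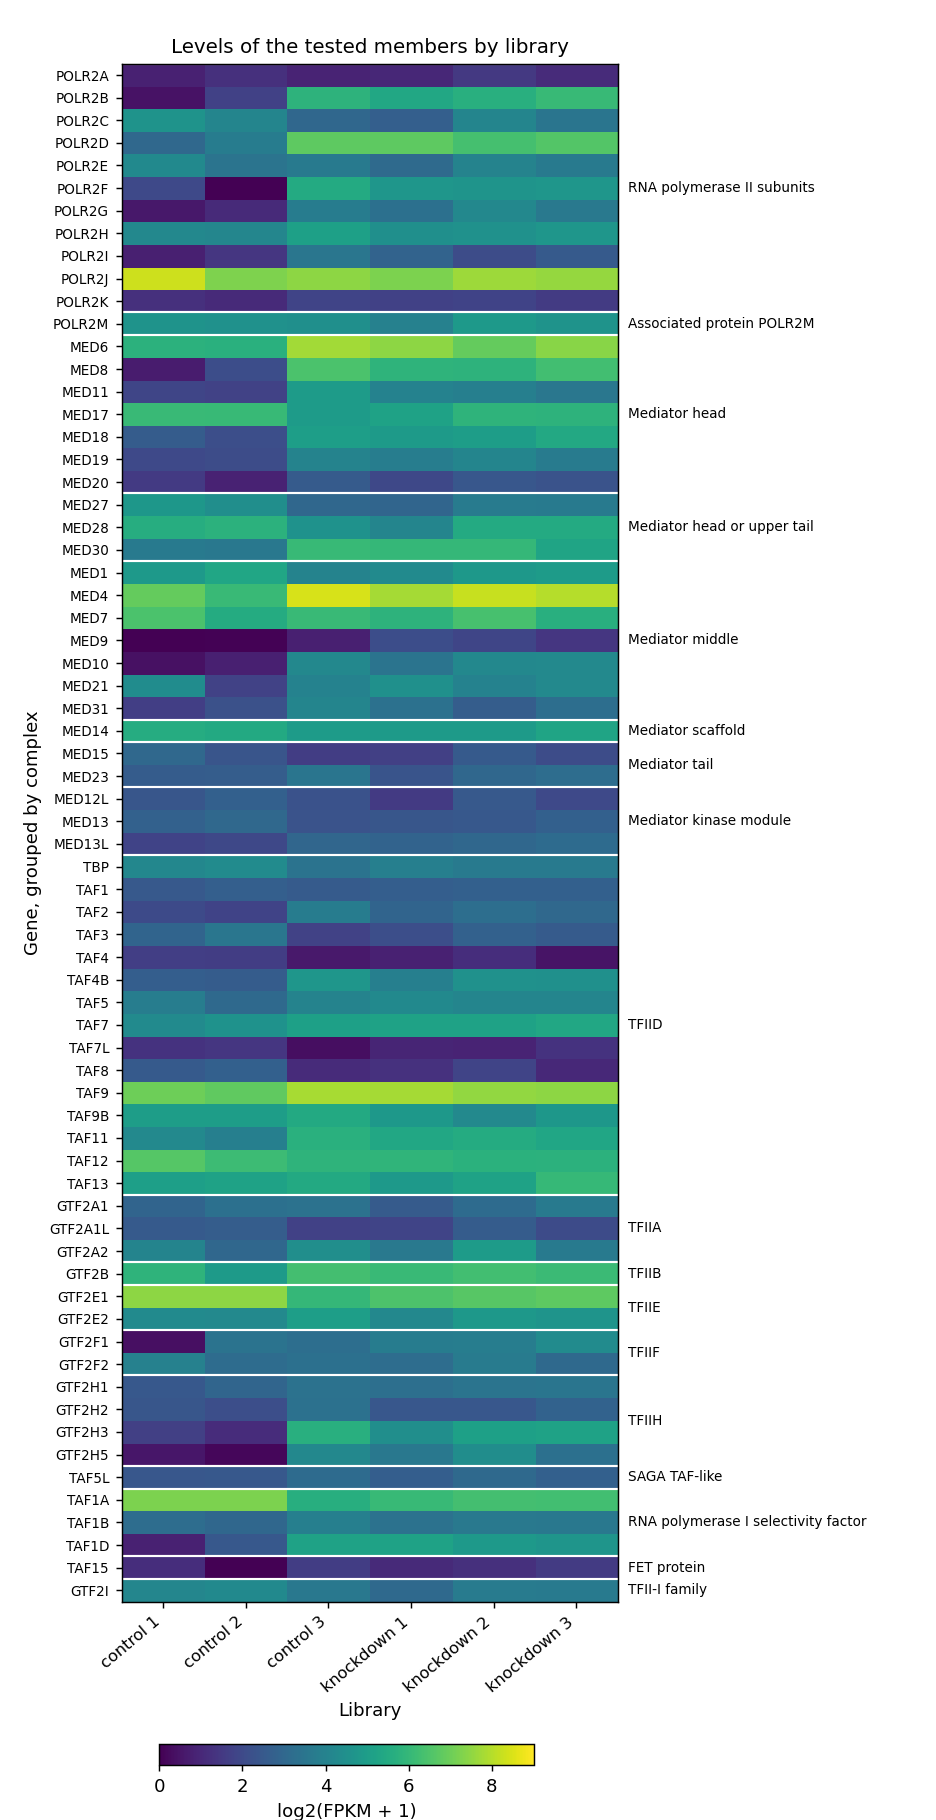
Level of the 68 tested members in each of the 6 libraries, as log2(FPKM + 1) on the colour scale, with genes in rows grouped by complex and libraries in columns. Many rows that are dark in controls 1 and 2, such as POLR2B, MED8 and GTF2H5, are bright in control 3 and in the 3 knockdowns, while MED9 is dark in all 3 controls.

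Among the 12 subunits of RNA polymerase II, 11 were tested, of which 8 were higher in the knockdowns and 3 lower, with a median log2 change of 0.30. Without control 3 the median was 0.53, and 5 of the 11 passed the adjusted threshold and were higher (POLR2B, POLR2D, POLR2F, POLR2G and POLR2I). These are 45.5% of those tested, against 20.2% of all genes tested, and 0 were lower, against 7.22%. The median of the subunits was 0.13 without control 1, 0.12 with a pseudocount of 5 and 1.02 with a minimum mean of 5 FPKM. Subunit levels were far from equal, although the complex holds its core subunits in fixed proportion. POLR2J had the highest mean, 198 FPKM, and POLR2L the lowest, 0.781 FPKM, a ratio of 254. POLR2J overlaps the span of RASA4B and POLR2L that of TSPAN4, so both values and their ratio are uncertain.

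POLR2A, the largest subunit, whose repeated tail is phosphorylated as transcription proceeds, lies on chromosome 12 from 52779833 to 52806210. It measured 0.769, 1.38 and 0.878 FPKM in controls 1 to 3, against 1.01, 1.83 and 1.18 FPKM in knockdowns 1 to 3. Its values overlapped and were near 1 FPKM in every library. The log2 change was 0.22 (95% interval -0.43 to 0.87), and -0.10 under quantile normalization. One other annotated gene overlaps its span, so its value is uncertain without a strand setting.

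POLR2B, the second catalytic subunit, lies on chromosome 8 from 56232730 to 56283367. It measured 0.358, 2.36 and 55.6 FPKM in controls 1 to 3, against 41.2, 50 and 66.2 FPKM in knockdowns 1 to 3. Controls 1 and 2 were low, and control 3 lay within the knockdown range. The log2 change was 3.04 ± 1.26 (SE, 3 against 3 libraries), with an unadjusted limma p of 0.0458 and an adjusted p of 0.775. Without control 3 it was 4.62 ± 0.42, with an adjusted limma p of 0.00043, and without control 1 it was 1.93. The span of POLR2B overlaps that of IGFBP7, which makes this value uncertain too.

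POLR2D and POLR2G form the stalk of the polymerase, which projects from the core near the exit of the new RNA. POLR2D measured 7.29, 12.8 and 109 FPKM in controls 1 to 3, against 108, 81.1 and 95.5 FPKM in knockdowns 1 to 3. POLR2G had 0.494, 1.11 and 12.6 FPKM for the controls against 9.11, 17.3 and 11.5 FPKM for the knockdowns, in the same order. For both stalk subunits controls 1 and 2 lay below every other library, and control 3 did not. Their log2 changes were 2.03 ± 0.90 for POLR2D (limma adjusted p = 0.775) and 1.92 ± 0.81 for POLR2G (unadjusted p of 0.0498, adjusted p = 0.775). Without control 3 these were 3.16 and 2.90, with adjusted limma p of 0.00051 and 0.00122, and without control 1 POLR2D was at 1.29. With a mean of 0.802 FPKM in controls 1 and 2, POLR2G met the filter through the other libraries.

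POLR2J, which pairs with POLR2C in the first step of polymerase assembly, measured 314, 153 and 178 FPKM in controls 1 to 3, against 149, 206 and 192 FPKM in knockdowns 1 to 3. Control 1 was the highest, and the other 5 libraries were mixed. Its log2 change was -0.18 (95% interval -1.02 to 0.67) and turned to 0.13 when control 1 was left out. POLR2F, chosen for mention after its values were seen, is one of the subunits shared with RNA polymerases I and III. Control 1 had 2.92 FPKM of it, control 2 was listed at 0, control 3 had 44.4 FPKM and the knockdowns had 24.3 to 25.4 FPKM. The remaining tested subunits, POLR2C, POLR2E, POLR2H, POLR2I and POLR2K, had log2 changes from -0.47 to 0.59, and the groups overlapped for each.

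POLR2M, a protein that binds RNA polymerase II and makes it depend on Mediator, measured 23.8, 22.4 and 21.4 FPKM in controls 1 to 3, against 14.6, 27.9 and 23.8 FPKM in knockdowns 1 to 3. The controls lay within the knockdown range, and the log2 change was -0.07 (95% interval -0.87 to 0.72).

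**Figure D2:**
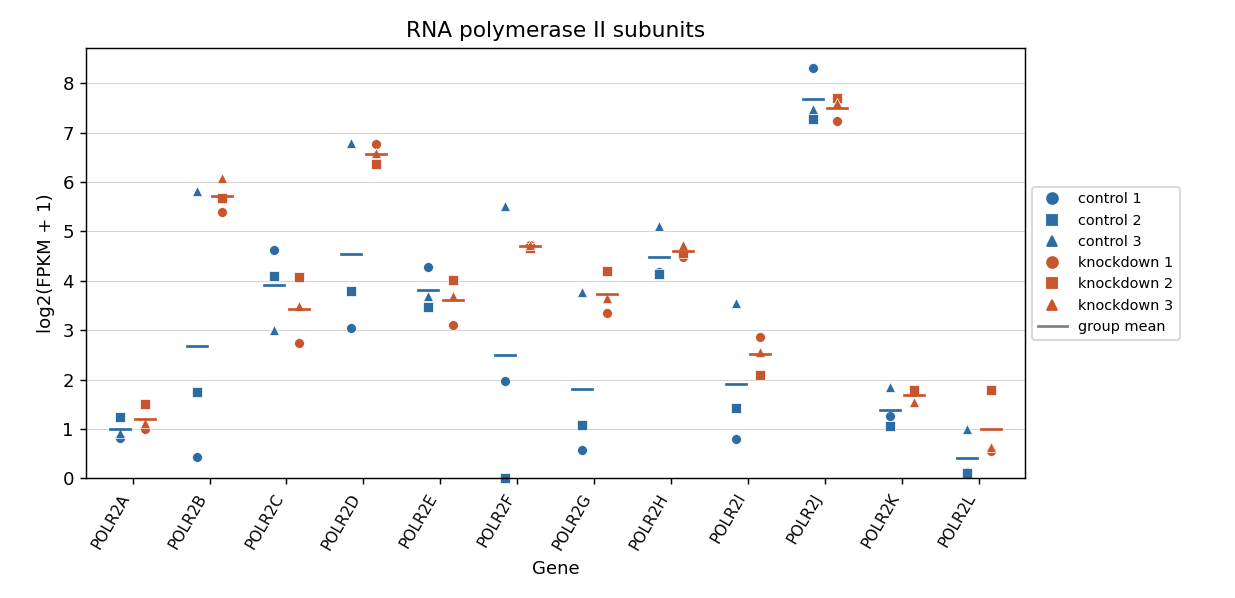
Level of each of the 12 RNA polymerase II subunits, as log2(FPKM + 1) on the vertical axis, with 1 point per library, controls in blue and knockdowns in orange, and a bar at the mean of each group. POLR2B, POLR2D, POLR2F and POLR2G have controls 1 and 2 far below control 3, which sits at the level of the 3 knockdowns, whereas POLR2A and POLR2J show no such division.

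Mediator had 30 members in the role lists, of which 23 were tested. Of these 13 were higher in the knockdowns and 10 lower, with a median log2 change of 0.58. Without control 3 the median was 1.11, with 12 passing higher (52.2%) and 1 passing lower (4.35%). In that fit 20.2% of all genes tested passed higher and 7.22% lower. The Mediator median was 0.20 without control 2, and 0.24 with a pseudocount of 5. In the head module, which contacts the polymerase, 6 of 7 tested members were higher and 1 was lower, with a median of 0.94. That median came to 1.86 without control 3, and leaving out control 1 gave 0.53 and control 2 gave 0.48. In the middle module, 5 of 7 were higher and 2 lower, with a median of 0.87. Without control 3 it was 1.17, and without control 2 it was 0.23. Without control 3, 4 of the 7 passed higher (MED4, MED9, MED10 and MED31), 57.1% against 20.2% of all genes tested, and 0 lower. Of the 3 tested subunits placed between head and tail (MED27, MED28 and MED30), 1 was higher and 2 lower, with a median of -0.30, which turned to 0.17 without knockdown 1. Without control 3 that median was -0.67, with 1 passing higher (MED30) and 1 lower (MED27). The scaffold subunit MED14, both tested tail subunits and 2 of the 3 tested kinase module subunits were lower, and the kinase module's median of -0.17 turned to 0.29 with a minimum mean of 5 FPKM. Without control 3, of MED14 and the tested tail and kinase module subunits, MED13L passed the adjusted limma threshold. No test of a difference between modules was made.

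In the head module, MED6, which joins head and middle, measured 54.4, 51.0 and 213 FPKM in controls 1 to 3, against 178, 117 and 166 FPKM in knockdowns 1 to 3. MED18, on chromosome 6 from 85384085 to 85392296, sits in the movable jaw of the head and had 5.16, 3.50 and 32.4 FPKM for the controls against 29.0, 31.2 and 41.8 FPKM for the knockdowns. MED17, the subunit around which the head is built, had 68.2, 66.3 and 29.8 FPKM for the controls against 35.1, 56.5 and 56.0 FPKM for the knockdowns. MED6 and MED18 were low in controls 1 and 2, and MED17 was highest there. Log2 changes were 0.84 ± 0.58 for MED6, 1.83 ± 0.74 for MED18 (unadjusted limma p of 0.0419, adjusted p = 0.775) and -0.09 ± 0.42 for MED17. Without control 3 they were 1.5, 2.72 and -0.47, and the first 2 passed at adjusted limma p of 0.00582 and 0.000786. MED6 was at 0.53 without control 1 and 0.48 without control 2.

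MED8, which anchors the jaw to the head and was chosen after its values were seen, is described for its low values in controls 1 and 2. It measured 0.597, 3.39 and 85.5 FPKM in controls 1 to 3, against 57.2, 55.2 and 76.7 FPKM in knockdowns 1 to 3. Without control 3, 6 of the 7 tested head subunits passed the adjusted threshold and were higher (MED6, MED8, MED11, MED18, MED19 and MED20). These are 85.7% of those tested, against 20.2% of all genes tested, and 0 were lower, against 7.22%. MED17 is the seventh tested head subunit. For the head subunits the mean log2 level was 2.94, 2.97 and 5.11 in controls 1, 2 and 3 and 4.74 to 4.93 in the knockdowns.

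MED30, a subunit found in animals and absent from budding yeast, measured 12, 11.3 and 65.9 FPKM in controls 1 to 3, against 63.1, 62.6 and 37.5 FPKM in knockdowns 1 to 3. MED28, likewise an animal subunit, had 48.1, 54.2 and 23.0 FPKM for the controls against 16.1, 44.1 and 44.6 FPKM for the knockdowns. Controls 1 and 2 were the lowest libraries for MED30 and the highest for MED28. These gave log2 changes of 1.29 ± 0.68 and -0.30 ± 0.52, and without control 3 they were 2.09 (limma adjusted p = 0.00263) and -0.67 (adjusted p = 0.28).

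MED9, a small subunit of the middle module on chromosome 12 from 60925161 to 60933999, was 1 of 5 tested members, with POLR2A, MED7, TAF1 and TAF9B, whose control 3 was not nearer to the knockdown mean than to controls 1 and 2. It measured 0.0226, 0.0419 and 0.744 FPKM in controls 1 to 3, against 3.35, 2.72 and 1.68 FPKM in knockdowns 1 to 3. All 3 knockdowns lay above all 3 controls, and every value was low. Its mean of 1.43 FPKM reached the 1 FPKM filter only through the knockdowns, with 2.58 FPKM there against 0.269 FPKM in the controls. Its p-values are therefore those of a gene admitted by the group where it was high. The log2 change was 1.51 ± 0.34 (95% interval 0.72 to 2.31), with an unadjusted limma p of 0.00269, the smallest among the members, and an adjusted p of 0.775. When each library was left out in turn it ranged from 1.36 to 1.77, but it depended on the pseudocount, at 3.40 with 0.1 and 0.52 with 5. Without control 3 the adjusted limma p was 0.00465.

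MED4, which forms part of the core of the middle module, measured 115, 67.2 and 351 FPKM in controls 1 to 3, against 219, 305 and 257 FPKM in knockdowns 1 to 3. MED7, which pairs with MED21 as a flexible hinge, had 85.9, 45.9 and 67.4 FPKM for the controls against 55.1, 81.5 and 49.7 FPKM for the knockdowns. MED1, the subunit that nuclear receptors bind, had 28.0, 39.5 and 15.3 FPKM for the controls against 18.7, 26.5 and 29.6 FPKM for the knockdowns. MED4 was lowest in controls 1 and 2, whereas the groups were mixed for MED7 and MED1. On the log2 scale the changes were 0.88 ± 0.59 for MED4, -0.08 ± 0.36 for MED7 and -0.07 ± 0.42 for MED1. Without control 3 MED4 passed at 1.54 (limma adjusted p = 0.009), and MED7 and MED1 did not pass. Without control 2, MED4 was at 0.36. MED1 overlaps the span of CDK12, which makes its value uncertain.

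MED14, the backbone that joins all 3 core modules, measured 46.2, 42.9 and 29.6 FPKM in controls 1 to 3, against 29.0, 28.9 and 37.5 FPKM in knockdowns 1 to 3. Controls 1 and 2 were above the other 4 libraries. Its log2 change was -0.29 (95% interval -1.04 to 0.45). In the tail, which many activators contact, MED15 had 7.28, 4.20 and 2.1 FPKM for the controls against 2.27, 4.83 and 3.29 FPKM for the knockdowns. MED23, another activator target in the tail, had 5.19, 5.36 and 10.3 FPKM for the controls against 4.07, 6.97 and 8.38 FPKM for the knockdowns. The groups overlapped for both tail subunits, with log2 changes of -0.24 ± 0.44 and -0.08 ± 0.40.

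The kinase module carries CDK8 or CDK19 with cyclin C (CCNC), and MED13 or MED13L ties it to the core. MED13 measured 5.90, 7.31 and 3.94 FPKM in controls 1 to 3, against 4.37, 4.57 and 5.70 FPKM in knockdowns 1 to 3. In each library 98.7% to 99.7% of this level lay on 1 row that RefSeq models as non-coding RNA. MED13L had 2.54, 2.89 and 6.88 FPKM for the controls against 6.23, 7.07 and 7.83 FPKM for the knockdowns. MED13 exceeded MED13L in controls 1 and 2, and MED13L exceeded MED13 in the other 4 libraries. Fitted log2 changes were -0.17 ± 0.32 for MED13 and 0.75 ± 0.39 for MED13L, and without control 3 MED13L passed at 1.11 (limma adjusted p = 0.017).

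MED12, which activates the kinase, had a mean of 0.0919 FPKM and was not tested, with values from 0 to 0.144 FPKM in the controls and from 0.097 to 0.128 FPKM in the knockdowns. Its paralogue MED12L, with a mean of 3.90 FPKM, was the more abundant of the pair in all 6 libraries. Of the kinase partners, CDK8 and CCNC were tested and CDK19 was not. CCNC, chosen after its values were seen, measured 0.986, 2.34 and 22.8 FPKM in controls 1 to 3, against 12.7, 21.5 and 18.4 FPKM in knockdowns 1 to 3. Of these partners 1 was higher and 1 lower with 6 libraries, and 0 passed the adjusted limma threshold. Without control 3 CCNC passed, higher in the knockdowns, as did 20.2% of all genes tested.

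**Figure D3:**
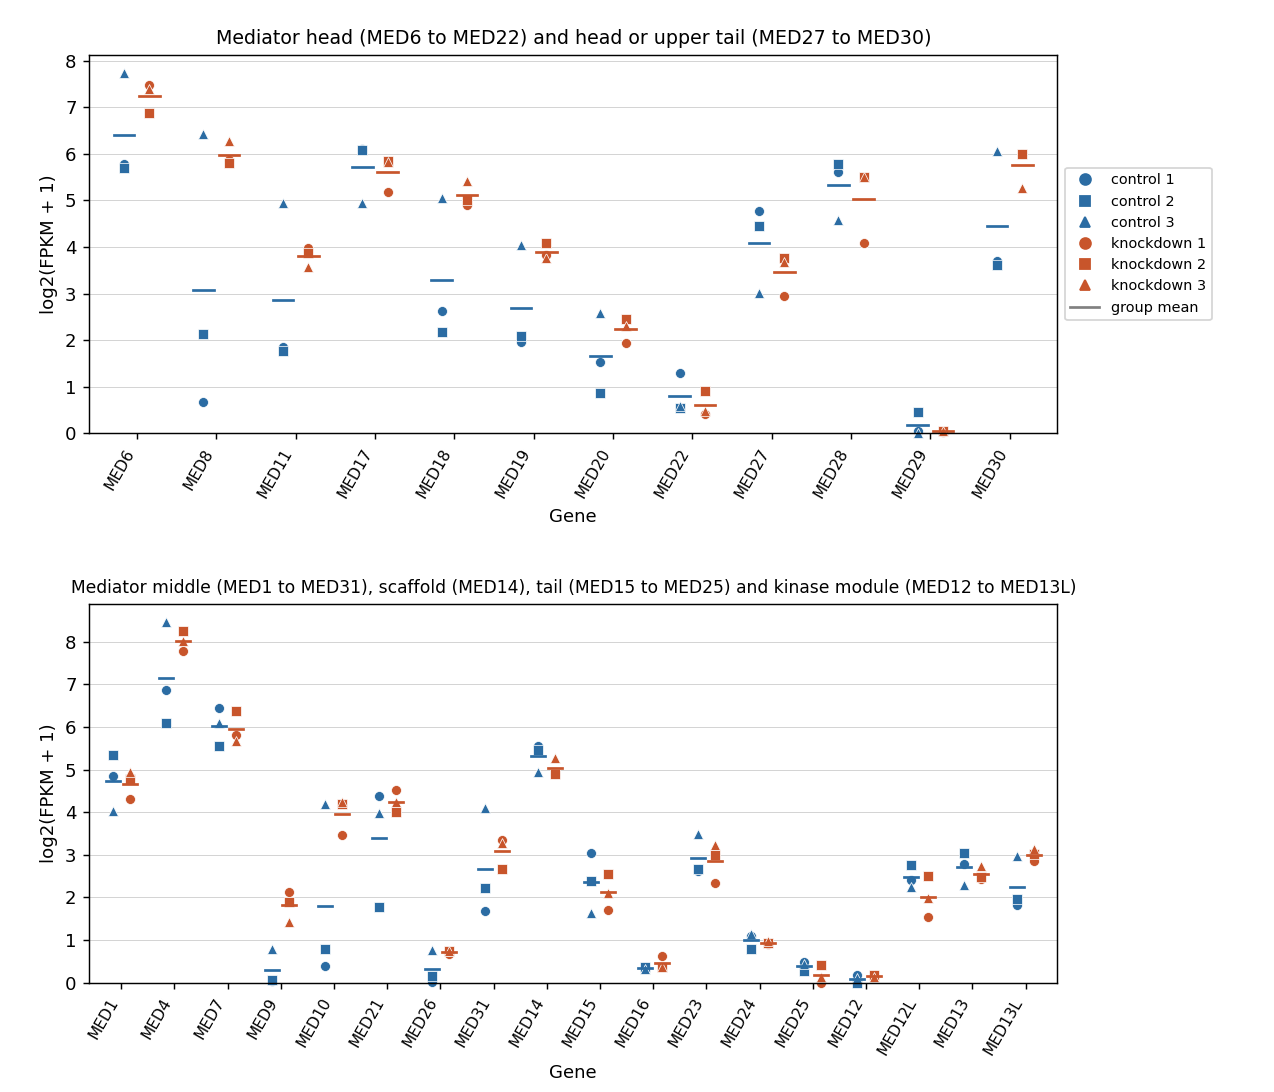
Level of each of the 30 Mediator subunits, as log2(FPKM + 1) on the vertical axis, with 1 point per library, controls in blue, knockdowns in orange and a bar at each group mean, with the head in the upper panel and the other modules in the lower one. Most head subunits show controls 1 and 2 below the other 4 libraries, MED17 and MED14 show them above, and MED9 has all 3 controls below all 3 knockdowns.

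In TFIID, 15 of 17 members were tested, of which 9 were higher in the knockdowns and 6 lower. The median log2 change was 0.10, and it turned to -0.03 under quantile normalization, -0.02 with TPM and -0.13 without knockdown 3. Without control 3 it was 0.11, with 4 members passing higher (TAF2, TAF4B, TAF7 and TAF11) and 1 lower (TAF8). These are 26.7% and 6.67% of those tested, near the 20.2% and 7.22% of all genes tested. TBP, the DNA-binding subunit, measured 16.8, 19.5 and 9.86 FPKM in controls 1 to 3, against 13.8, 12.2 and 12 FPKM in knockdowns 1 to 3. TAF1, the largest subunit and the scaffold of one lobe, had 4.76, 5.69 and 5.01 FPKM for the controls against 5.47, 5.85 and 5.81 FPKM for the knockdowns. TBP was highest in controls 1 and 2, while TAF1 varied little among all 6 libraries. The fit gave log2 changes of -0.21 (95% interval -1.03 to 0.60) for TBP and 0.13 (95% interval -0.52 to 0.77) for TAF1, which was -0.03 under quantile normalization.

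TAF9, a histone-fold subunit that TFIID shares with the coactivator SAGA, measured 128, 110 and 226 FPKM in controls 1 to 3, against 220, 185 and 175 FPKM in knockdowns 1 to 3. TAF12, another histone-fold subunit and a partner of TAF4, had 98.1, 71.7 and 57.5 FPKM for the controls against 58.4, 53.4 and 54.5 FPKM for the knockdowns. Controls 1 and 2 were the lowest libraries for TAF9 and the highest for TAF12. Log2 changes were 0.39 ± 0.35 and -0.41 ± 0.31, and neither passed without control 3 (limma adjusted p = 0.0564 and 0.103). TAF9 was at 0.18 without control 2, and TAF12 at -0.21 without control 1. TAF9 overlaps the span of AK6, so its value is uncertain.

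The 3 TFIID subunits whose groups did not overlap, chosen after their values were seen, were TAF5, TAF7 and TAF9B. TAF5, a core subunit with a propeller fold, measured 12.9, 7.49 and 15.2 FPKM in controls 1 to 3, against 18.1, 16.1 and 16.1 FPKM in knockdowns 1 to 3. TAF7, a partner of TAF1, had 19.0, 22.8 and 33.5 FPKM for the controls against 35.1, 35.5 and 41.1 FPKM for the knockdowns. TAF9B had 30.9, 31.1 and 42.8 FPKM for the controls against 26.9, 17.9 and 25.9 FPKM for the knockdowns. Control 3 was the control nearest to the knockdowns for TAF5 and TAF7 and the farthest from them for TAF9B. These gave log2 changes of 0.52 ± 0.35, 0.59 ± 0.32 and -0.55 ± 0.32, all with an adjusted limma p of 0.775, and without control 3 TAF7 passed at an adjusted p of 0.0421 while TAF9B did not (0.279).

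Several general factors have variants known from germ cells. TAF4B, a TAF4 paralogue that mouse ovaries need for normal follicles, lies on chromosome 6 from 110855636 to 110972798. It measured 5.47, 5.09 and 25.7 FPKM in controls 1 to 3, against 13.9, 22.7 and 22.1 FPKM in knockdowns 1 to 3. TAF4 itself, chosen after its values were seen, had 2.20, 2.12 and 0.526 FPKM for the controls against 0.787, 1.24 and 0.406 FPKM for the knockdowns. TAF4B was low and TAF4 high in controls 1 and 2. On the log2 scale the changes were 0.99 ± 0.61 for TAF4B and -0.48 ± 0.38 for TAF4. Without control 3 they were 1.68 (limma adjusted p = 0.00615) and -0.83 (adjusted p = 0.0645). Without control 2, TAF4B was at 0.62.

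TAF7L, an X-linked relative of TAF7 with a role in mouse sperm formation, measured 1.49, 1.71 and 0.272 FPKM in controls 1 to 3, against 0.893, 0.857 and 1.49 FPKM in knockdowns 1 to 3. Its log2 change was 0.01 (95% interval -0.84 to 0.86), and its sign turned under several alternatives, from -0.33 without control 3 to 0.21 at the other end of the leave-one-out range. GTF2A1L, a TFIIA subunit of germ cells in mouse, had 4.91, 5.26 and 2.34 FPKM for the controls against 2.56, 5.16 and 3.12 FPKM for the knockdowns. The groups overlapped for both genes. GTF2A1L had a log2 change of -0.15 (95% interval -1.06 to 0.76).

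TBPL2, the TBP relative that replaces TBP in growing mouse oocytes, is outside the symbol rule but was on the list of TBP paralogues. It measured 12.6, 9.34 and 3.58 FPKM in controls 1 to 3, against 5.23, 4.13 and 3.16 FPKM in knockdowns 1 to 3. Controls 1 and 2 were the highest libraries, and control 3 lay within the knockdown range. The log2 change was -0.76 ± 0.46, -1.22 without control 3 (limma adjusted p = 0.0208) and -0.43 without control 1. Of the 5 genes on that list, which also holds TBPL1 and the TBP regulators BTAF1, DR1 and DRAP1, 3 were higher and 2 lower with a median of 0.04, and 0 passed with 6 libraries. Without control 3 the median was -0.09, and 1 passed higher (BTAF1) and 1 lower (TBPL2). Each is 20% of the list, against 20.2% of all genes tested higher and 7.22% lower. TBPL1, chosen after its values were seen, had the highest level on the list, with 702, 765 and 334 FPKM for the controls against 471, 531 and 443 FPKM for the knockdowns.

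The balance within 10 pairs of related genes was compared over libraries as a difference in log2(FPKM + 1). For TAF4B against TAF4 this difference was 1.02, 0.97 and 4.13 in controls 1 to 3, against 3.06, 3.41 and 4.04 in knockdowns 1 to 3. For MED13L against MED13 it was -0.96, -1.09 and 0.67 for the controls against 0.43, 0.54 and 0.40 for the knockdowns. Both balances divided controls 1 and 2 from the other 4 libraries. For TAF9 against TAF9B it was 2.01, 1.79 and 2.38 for the controls against 2.99, 3.30 and 2.71 for the knockdowns, so that all 3 knockdowns lay above all 3 controls. For TBP against TBPL2 it was 0.39, 0.99 and 1.25 for the controls against 1.25, 1.36 and 1.64 for the knockdowns, where control 3 and knockdown 1 were equal to 2 decimals. The 2 pairs without overlap had a two-sided exact permutation p of 0.1, the smallest that 3 against 3 libraries allow, and an adjusted p of 0.5 over the 10 pairs. The split between 2 related genes is uncertain where reads match both. The MED13 side of its balance came almost wholly from a row modelled as non-coding RNA.

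**Figure D4:**
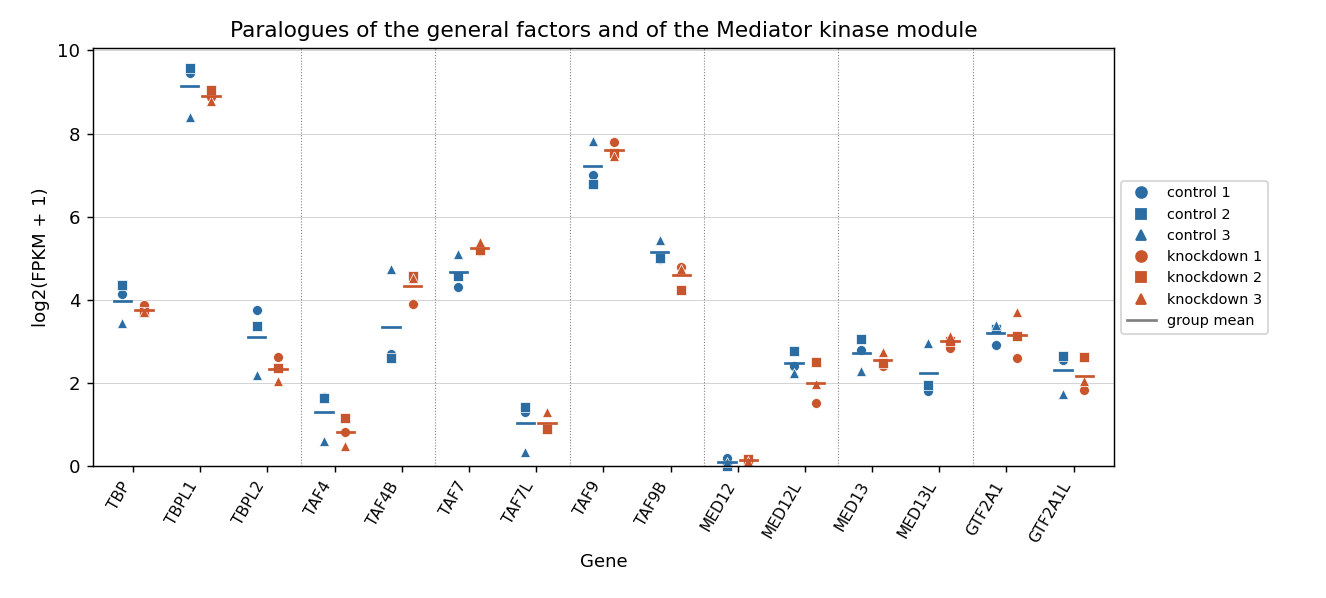
Level of related general factor and Mediator kinase module genes, as log2(FPKM + 1) on the vertical axis, with 1 point per library, controls in blue, knockdowns in orange and a bar at each group mean, and dotted lines between families. TAF4B and TAF4 differ in opposite directions between controls 1 and 2 and the other libraries, and the TAF9B values of the 3 knockdowns lie below those of the 3 controls.

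Outside TFIID, 12 of 13 general factor subunits were tested, of which 7 were higher in the knockdowns and 5 lower, with a median log2 change of 0.14 and of 0.43 without control 3. In that fit 2 passed higher (GTF2H3 and GTF2H5), 16.7% of those tested, and 1 lower (GTF2E1), against 20.2% and 7.22% of all genes. GTF2B, which links TBP on the promoter to the polymerase, measured 57.3, 28.7 and 77.5 FPKM in controls 1 to 3, against 67.5, 77.3 and 69.7 FPKM in knockdowns 1 to 3. Its control 2 was the lowest library, and control 3 was the highest. The log2 change was 0.49 (95% interval -0.47 to 1.46), 0.80 without control 3 (limma adjusted p = 0.097) and 0.10 without control 2.

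In TFIIA, which stabilises TBP on DNA, GTF2A1 measured 6.53, 8.89 and 9.51 FPKM in controls 1 to 3, against 5.05, 7.85 and 12.2 FPKM in knockdowns 1 to 3. GTF2A2, its small partner, had 15.6, 7.01 and 20.8 FPKM for the controls against 11.5, 29.4 and 12.2 FPKM for the knockdowns. Neither gene divided the groups. Fitted log2 changes were -0.05 ± 0.38 and 0.27 ± 0.52, and the median of the 3 TFIIA members was -0.05, which turned to 0.11 with a minimum mean of 5 FPKM and to 0.05 without control 3.

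GTF2E1 encodes the large subunit of TFIIE, which brings TFIIH to the promoter, and lies on chromosome 13 from 139565891 to 139609483. It measured 177, 176 and 62.2 FPKM in controls 1 to 3, against 88.6, 100 and 109 FPKM in knockdowns 1 to 3. GTF2E2, the small subunit, had 18.8, 17.8 and 32.4 FPKM for the controls against 17.3, 26.8 and 24.3 FPKM for the knockdowns. GTF2E1 was highest in controls 1 and 2 and lowest in control 3, and GTF2E2 was mixed. The fit gave log2 changes of -0.33 ± 0.46 for GTF2E1 and 0.02 ± 0.36 for GTF2E2, which was -0.09 under quantile normalization and -0.10 with TPM. Without control 3, GTF2E1 passed at -0.83 (limma adjusted p = 0.0299) and GTF2E2 did not at 0.28 (adjusted p = 0.447). Without control 1, and likewise without control 2, GTF2E1 was at -0.08. GTF2E1 overlaps the span of RABL3.

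In TFIIF, which travels with the polymerase, GTF2F1 measured 0.304, 9.78 and 8.62 FPKM in controls 1 to 3, against 12.7, 13.2 and 19.1 FPKM in knockdowns 1 to 3. Its partner GTF2F2 had 14.4, 8.09 and 8.92 FPKM for the controls against 8.38, 12.3 and 7.36 FPKM for the knockdowns. The groups did not overlap for GTF2F1, in which control 1 lay far below every other library, and they overlapped for GTF2F2. The log2 change of GTF2F1 was 1.62 ± 0.80 (limma adjusted p = 0.775), and it was 0.63 when control 1 was left out. That of GTF2F2 was -0.14 ± 0.36. The level of GTF2F1 came in all 6 libraries from 1 row that RefSeq models as non-coding RNA. Whether that row stands for the coding mRNA was not tested.

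Among the GTF2H subunits of TFIIH, the factor that opens DNA and phosphorylates the polymerase tail, 4 of 5 were tested, of which 3 were higher and 1 lower with a median of 1.28. Without control 3 the median was 2.07, with 2 passing higher (GTF2H3 and GTF2H5), 50% against 20.2% of all genes tested, and 0 lower. It was 0.88 without control 1, 0.85 without control 2, 0.70 with a pseudocount of 5 and 2.02 with array weights. GTF2H3, a core subunit, measured 2.27, 1.21 and 49.8 FPKM in controls 1 to 3, against 20.6, 33.8 and 35.0 FPKM in knockdowns 1 to 3. GTF2H5, a small subunit that stabilises TFIIH, had 0.476, 0.124 and 17.3 FPKM for the controls against 11.3, 20.5 and 9.09 FPKM for the knockdowns. Both were at least 5 FPKM in control 3 and all knockdowns and under that in controls 1 and 2. Log2 changes were 2.07 ± 1.12 and 2.15 ± 1.03, and without control 3 they were 3.48 and 3.43 (limma adjusted p = 0.000539 and 0.000913). Without control 2 they were 1.22 and 1.42. With a mean of 0.3 FPKM in controls 1 and 2, GTF2H5 met the filter through the other libraries. Of the TFIIH genes without a GTF2 symbol, 3 of 5 were tested: CDK7, CCNH and MNAT1, which form its kinase. All 3 were higher with a median of 0.65, and 0 passed with 6 libraries. Without control 3 all 3 passed, at log2 changes of 1.17, 1.29 and 1.18, where 20.2% of all genes tested passed higher.

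**Figure D5:**
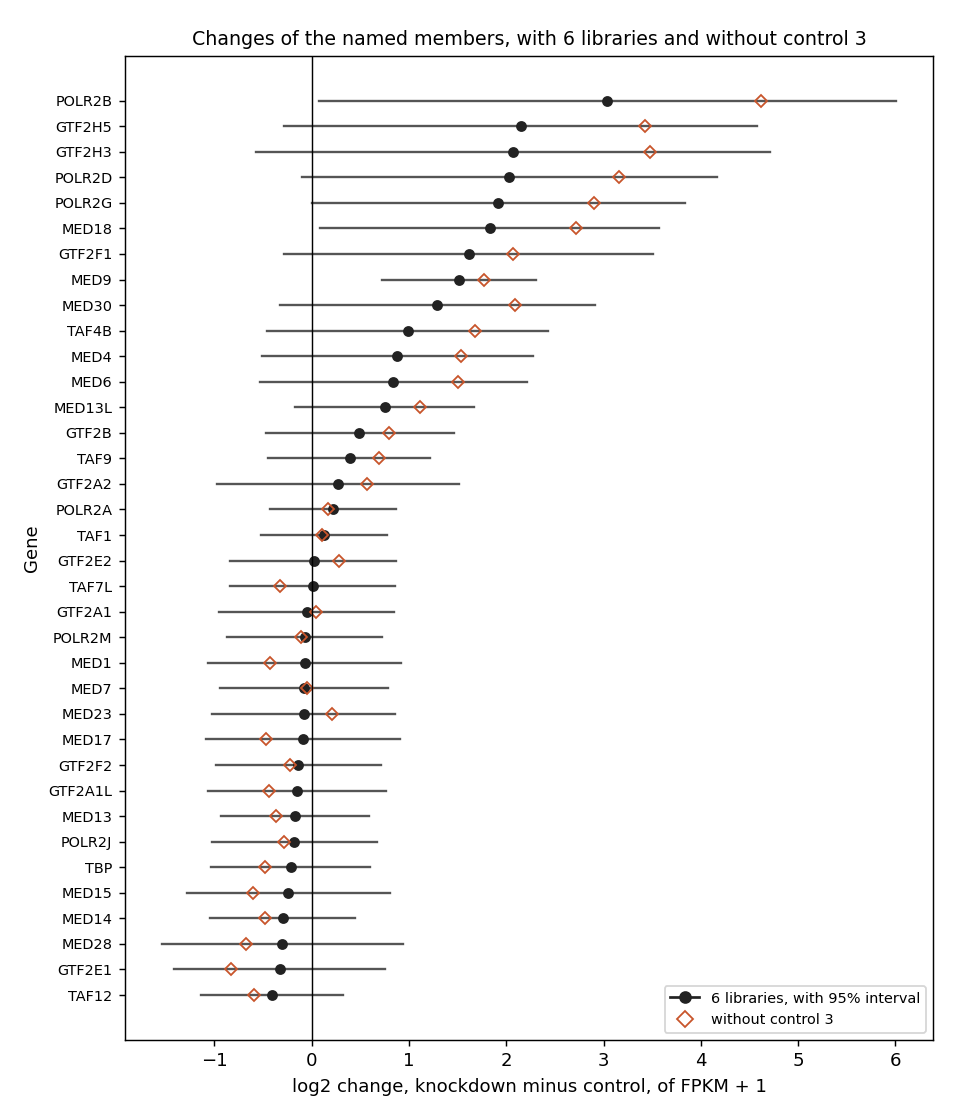
Log2 change, knockdown minus control, of FPKM + 1 for the members described individually by rule, with filled points and 95% intervals for 6 libraries and open diamonds for the fit without control 3. The intervals of POLR2B, MED18 and MED9 lie above 0, that of POLR2G begins at 0.00, and the diamonds lie farther from 0 than the points for most genes with a large change, from 4.62 for POLR2B to -0.83 for GTF2E1.

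The 10 members not counted in these complexes include the SAGA subunits TAF5L and TAF6L, which were among the related pairs with TAF5 and TAF6. The others are the RNA polymerase I selectivity factor subunits TAF1A to TAF1D, the RNA-binding protein TAF15 and the signal-regulated factors GTF2I and GTF2IRD1. The last is the adipogenesis gene MEDAG, which was listed at 0 in all 6 libraries. Removal of all 10 moved the median of the tested members from 0.21 to 0.24. Of the 6 that were tested, 4 were higher and 2 lower, and 0 passed with 6 libraries. TAF1A and TAF1D, chosen after their values were seen, differed in opposite directions although both belong to the factor that places RNA polymerase I on ribosomal DNA. TAF1A measured 150, 148 and 49.1 FPKM in controls 1 to 3, against 66.5, 78.4 and 76.1 FPKM in knockdowns 1 to 3. TAF1D had 0.792, 4.56 and 35.1 FPKM for the controls against 35.2, 27.9 and 25.1 FPKM for the knockdowns. Controls 1 and 2 were the highest libraries for TAF1A and the lowest for TAF1D. Without control 3 both passed, at -1.01 (limma adjusted p = 0.014) and 3.25 (adjusted p = 0.00265). TAF1D overlaps CEP295 and has 35 transcript rows, of which 1 was above 0.

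The genes that act after assembly were read from lists of the same pathway. Of 24 pausing and elongation genes, 20 were tested, 13 of them higher and 7 lower with a median of 0.33. RTF1, a subunit of the PAF1 complex that stimulates ubiquitination of histone H2B, measured 1.94, 5.86 and 14.8 FPKM in controls 1 to 3, against 15.4, 37.3 and 18.4 FPKM in knockdowns 1 to 3. All 3 knockdowns lay above the controls, by a small margin for control 3. Its log2 change was 1.75 ± 0.66 (unadjusted limma p of 0.0321, adjusted p = 0.775). Without control 3 it was 2.36 (adjusted limma p of 0.0116), and without control 1 it was 1.14. In the fit without control 3 the list had a median of 0.19, and 5 of the 20 passed and were higher, 25% against 20.2% of all genes tested, and 0 were lower. These shares are near each other.

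Of 11 genes for polymerase assembly and tail phosphatases, 9 were tested, 6 of them higher and 3 lower with a median of 0.18. RPRD1A, which binds the phosphorylated polymerase tail, measured 6.18, 4.62 and 22.6 FPKM in controls 1 to 3, against 26.8, 27.4 and 22.1 FPKM in knockdowns 1 to 3. Control 3 lay within the knockdown range. Its log2 change was 1.42 ± 0.56 (unadjusted limma p of 0.0377, adjusted p = 0.775). Without control 3 it was 2.05 (adjusted limma p of 0.00162), the list's median was 0.37, and 3 of the 9 passed and were higher, 33.3% against 20.2% of all genes tested. Of 13 tested subunits of RNA polymerases I and III, 9 were higher and 4 lower with a median of 0.12, and 0 passed with 6 libraries. Without control 3 their median was 0.40, and 5 passed higher, 38.5% against 20.2% of all genes tested.

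Of the 68 tested members, 26 had more than 1 transcript row above 0. The same row held the largest share in all 6 libraries for 16 of them, and the leading row differed between libraries for 10. In MED12L, 1 row held 100%, 100% and 96.0% of the level in controls 1, 2 and 3 and was listed at 0 in all 3 knockdowns, where another 2 rows held the level. The total of MED12L still overlapped between groups, with 4.31, 5.83 and 3.76 FPKM for the controls against 1.90, 4.66 and 2.94 FPKM for the knockdowns. MED1 and TAF1A also switched rows, but within both groups: a row of TAF1A measured 150, 0 and 49.1 FPKM in controls 1 to 3, against 66.5, 0 and 76.1 FPKM in knockdowns 1 to 3. A row at 0 beside a related row at a high value may be a failed estimate for that row, and summed levels were used throughout. For GTF2F1 and MED21 every row above 0, and for MED13 the leading row, is modelled by RefSeq as non-coding RNA. The summed levels of these 3 genes may thus not stand for coding mRNA.

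The 15 members that were not tested had a mean under 1 FPKM. They include several genes whose products the complexes need, among them POLR2L, a small subunit shared by all 3 polymerases, MED12, the tail subunits MED16, MED24 and MED25, TAF6 and TAF10 of TFIID and GTF2H4 of TFIIH. TAF10 measured 0.117, 0 and 0.268 FPKM in controls 1 to 3, against 0, 0.143 and 0 FPKM in knockdowns 1 to 3. POLR2L had 0.101, 0.0721 and 1.01 FPKM for the controls against 0.470, 2.48 and 0.560 FPKM for the knockdowns. Low values for genes of this kind limit what the table can show about them, and an exact 0 is given here only as a listed value. MED26, which brings elongation factors to Mediator, measured 0.0118, 0.124 and 0.717 FPKM in the controls, against 0.606 to 0.677 FPKM in the knockdowns.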

How the data were processed

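Libraries from 3 control and 3 knockdown samples were read from 1 deposited transcript table of 81774 rows. Per the file headers, each library has a coverage (a signal of mean read depth), an FPKM (scaled by the authors for length and library size) and a deposited TPM (rescaled to a common total). StringTie 2.1.7, Bowtie2 2.3.5, cutadapt and the build Sscrofa11.1 appear in the submitters' processing notes. The sources used here give neither the strand setting nor the treatment of reads with several positions. Titles of knockdown samples hold siL and their columns SL, while the genotype label reads LncT. LncT was not identified in the table, so its own level was not checked. A further 9 value columns, headed ST, matched no sample and were not used. Depth in reads is not known, so coverage divided by FPKM served as relative depth, and no counting interval was given.

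FPKM was summed per gene after 129 rows with date-like names were renamed and 1758 rows were named by identifier. Genes whose mean reached 1 FPKM entered a limma model (version 3.58.1, R 4.3.3) of log2(FPKM + 1) with group as the only term, a trend of variance on level and two-sided tests, with Benjamini-Hochberg adjustment at 0.05. This scale understates the change of weakly expressed genes. The filter mean was taken over all 6 libraries, also where 1 was left out. Intervals are 95%. Paralogue balances were set against each other in an exact permutation test, two-sided, with SciPy 1.17.1. Tables and plots were made in Python 3.11.15 with numpy 2.4.6, pandas 2.3.3 and matplotlib 3.10.9. Gene positions and overlaps come from the RefSeq table of Sscrofa11.1. Overlaps are not stated for every gene above. Further members overlap other annotated genes, among them TAF5 (USMG5), TAF1A (HHIPL2) and TAF8 (CCND3), and their values carry the same uncertainty.

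The members and lists were chosen with earlier results of these data known. The rule for genes given in full took members with an unadjusted p under 0.05, the 2 most abundant members of each role list, 11 fixed genes (POLR2A, TBP, TBPL2, TAF1, TAF4B, TAF7L, MED1, MED12, MED14, GTF2B and GTF2A1L) and, in each role or pathway list, the gene with the smallest p under 0.05 in each direction (RTF1 and RPRD1A from the pathway lists), 40 genes in all. Alternatives changed the pseudocount (0.1 or 5), the filter (none, or a mean of 5 FPKM), the scaling (median-of-ratios or quantile normalization), the variance model (array weights, or no trend) and the unit (TPM), or used the highest transcript row, a replicate block, only the symbols of the role lists, and leaving out each library in turn.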

Additional observations from a re-analysis of the deposited data

How the results depend on the processing

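The count of genes past the adjusted threshold, 0 with limma and 6 libraries, was 3405 with array weights (0.113 for control 3 and 0.789 to 2.31 for the others) and 9 with the highest transcript row. It ranged from 0 to 2854 over the fits that left out 1 library, with 2854 without control 3. Of the members 30 passed with array weights (25 higher and 5 lower), and 0 to 28 when 1 library was left out, with 28 without control 3. Members whose groups do not overlap numbered 5, and 6 to 49 without 1 library (49 without control 3, 11 without knockdown 1). Leaving out a library cannot lower this count, so a rise is no result about the members. Among these alternatives the share over all genes was taken only without control 3, where it was 61.9%. The median change of the members stayed above 0 in all alternatives, from 0.01 with quantile normalization to 0.47 with array weights, and from 0.12 to 0.44 without 1 library. The titles' replicate numbers gave no clear pairing. Same-numbered samples had correlated deviations of 0.08, 0.06 and 0.23, the last being the highest of any control and knockdown. Control 1 correlated best with knockdown 2 (0.10) and control 2 with knockdown 1 (0.11). Because control 3 stood apart from the other controls, these values cannot exclude a pairing. With the replicate block 0 genes and 0 members passed, and unadjusted p-values under 0.05 were found for 685 higher and 62 lower genes, 9 and 0 of them members.

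Signs of small changes turned as follows. With array weights the log2 change was 0.14 for GTF2A1, 0.31 for MED23, 0.08 for MED7, 0.03 for POLR2M and -0.28 for TAF7L. Quantile normalization gave -0.09 for GTF2E2, -0.10 for POLR2A, -0.03 for TAF1 and -0.32 for TAF7L, and TPM gave -0.10 for GTF2E2 and -0.07 for TAF7L. The highest transcript row gave -1.33 for GTF2A2 and 0.22 for MED7, and a pseudocount of 5 gave -0.01 for TAF7L. When each library was left out in turn, the log2 change ranged from -0.33 to 0.23 for GTF2A1, -0.44 to 0.02 for GTF2A1L, -0.15 to 0.57 for GTF2A2, -0.13 to 0.28 for GTF2E2, -0.33 to 0.09 for GTF2F2, -0.43 to 0.23 for MED1, -0.37 to 0.00 for MED13, -0.60 to 0.11 for MED15, -0.47 to 0.13 for MED17, -0.27 to 0.21 for MED23, -0.67 to 0.17 for MED28, -0.32 to 0.12 for MED7, -0.39 to 0.13 for POLR2J, -0.26 to 0.19 for POLR2M and -0.33 to 0.21 for TAF7L. The cause was not tested. FPKM without read counts gives no counting error for low genes such as MED9, and 3 libraries a group limit the precision.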
